A study of Mus musculus with 12 samples.

Results

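The 10 genes described here are well-known transcriptional targets of the tumour suppressor p53: Cdkn1a, Ccng1, Mdm2, Zmat3, Trp53inp1, Bax, Bbc3, Aen, Phlda3 and Sesn1. They were taken by symbol from a table of 39017 mouse genes counted by RNA sequencing. Each had 1 row, and all 10 were among the 14585 genes with enough reads to be tested. The libraries were made from CD4+ T cells, the helper lineage of T lymphocytes, of mice on the SJL background. The mice belonged to a 4-genotype model that separates the sex chromosomes from the type of gonad. Its Y chromosome, written Y-, lacks the testis-determining gene Sry, and some of the mice carried Sry as a transgene. The 4 groups were XX and XY-, both labelled female, and XXSry and XY-Sry, both labelled male, with 3 libraries each. All groups shared the same handling. The mice were gonadectomized when 4 to 6 weeks old, with carprofen and amoxicillin given. Their lymph nodes were collected when they were 8 to 12 weeks old. The T cells were then isolated by magnetic negative selection and stimulated in culture for 36 hours with beads carrying anti-CD3 and anti-CD28 antibodies.

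The design asked how sex chromosomes and Sry each relate to expression in these cells. A difference between carriers and non-carriers of Sry cannot be told apart from one left by the ovaries or testes that the mice had before surgery. The labels do not say that each library came from a separate animal, so the p-values reflect only how much these libraries vary, and part of that variation may be technical.

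The protein p53 is held at a low level in unstressed cells by MDM2, an E3 ubiquitin ligase that marks it for degradation. DNA damage, and other stress, frees p53, which then binds paired decamer sequences near its target genes. The targets act in cell cycle arrest, in feedback on p53 itself, in apoptosis and in metabolism. T cells that proliferate after antigen receptor stimulation divide very fast, and p53 is known to restrain that proliferation and to take part in the death of lymphocytes.

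The promoter sequences show which of the genes carry p53-like pairs beside their start sites. Windows of 300 bases, from 250 before to 50 after each RefSeq start site (GRCm38.p6), were searched for 2 p53 decamers 0 to 13 bases apart with at most 2 mismatches among the 20 bases; the motif reads the same on both strands. The table of windows held 8 of the 10 genes, not Trp53inp1 and Zmat3. Pairs were found for 5 of the 8, against 11.5% of the 27025 genes in the table. With at most 1 mismatch there were pairs for 3 of the 8, against 1.24% of all genes. The 5 pairs follow, since they show how near each gene comes to the full motif, with the decamers in capitals and the bases between them in lower case.
Cdkn1a, chr17:29090906-29090937, plus strand: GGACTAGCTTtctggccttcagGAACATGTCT
Bax, chr7:45467090-45467110, minus strand: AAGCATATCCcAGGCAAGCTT
Ccng1, chr11:40755462-40755481, minus strand: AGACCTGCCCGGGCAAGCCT
Aen, chr7:78895937-78895963, plus strand: GGGCTTGTCCgggcaagGAGCTTCCGC
Sesn1, chr10:41887253-41887275, plus strand: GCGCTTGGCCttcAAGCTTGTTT
The pair at Cdkn1a had 0 mismatches and a spacer of 12 bases, and a pair with 0 mismatches was found for 0.0740% of all genes. The pairs at Bax and Ccng1 had 1 mismatch each, and those at Aen and Sesn1 had 2. The Sesn1 pair lies beside one of its 2 start sites in the table. The windows of Bbc3, Mdm2 and Phlda3 held no pair within 2 mismatches, which says only that these letters are not in those windows.

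Library totals ranged from 11664186 to 16710188 counts, and the lowest count of any of the 10 genes in a library was 179, for Phlda3 in XX replicate 3. The labels matched the data. The RNA of Xist, which is made from the inactive X chromosome, had 40532 to 51786 counts per library with XX chromosomes and 36 to 70 with XY-. Sry had 1349 to 2132 counts in the carriers and 0 to 1 in the others. Markers of CD4+ T cells summed to 3082 to 3466 CPM (counts scaled to a common library size), with Cd4 at 810.2 to 916 CPM. Markers of other cells were low, with summed levels of 12.9 to 18.9 CPM for CD8 T cells, 2.14 to 5.01 for B cells, 13.1 to 18.0 for myeloid and dendritic cells and 0.872 to 2.66 for NK cells. Red cell and platelet markers summed to at most 0.0637 CPM. The exception was a stromal and endothelial list at 78.9 to 125 CPM, which was nearly all Pecam1. No marker of any list was called for sex chromosomes, against 0.137% of all tested genes. For Sry 3 of the 8 CD4+ T cell markers and 1 of the 2 CD8 markers were called, against 793 of 14585 tested genes. The part of these markers in the Sry results was not tested. A pair of libraries was taken as standing apart. XX replicate 3 had 5.01% of its counts on mitochondrial genes, against 2.27% to 2.87% in the other 11. XY- replicate 2 was the lowest XY- library for 8 of the 10 genes, a choice made from these genes themselves. XXSry replicate 3, the lowest of its group for 7 of the 10, was not part of this pair. Without XXSry replicate 3 the genes called for the Sry mean were 1282 of 14807, against 793 of 14585. In bulk RNA, fewer cells of a type and less RNA per cell cannot be told apart.

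All 10 genes were expressed in every library. Set per kilobase of exonic length, the order of the mean levels ran from Ccng1 at 126 CPM per kb through Bax at 67.9, Trp53inp1 at 38.1, Mdm2 at 23.5 and Cdkn1a at 21.5. It ended with Phlda3 at 17.2, Sesn1 at 17.1, Aen at 17.0, Bbc3 at 11.9 and Zmat3 at 7.17. The levels per kb of Mdm2 and Cdkn1a, and those of Phlda3, Sesn1 and Aen, differed by less than their spread over libraries. Phlda3 varied most, with a ratio of 2.28 between its highest and lowest library, and Cdkn1a came next with 1.81. Mdm2 varied least, with a ratio of 1.16 and a coefficient of variation of 4.30% over the 12 libraries.

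**Figure D1:**
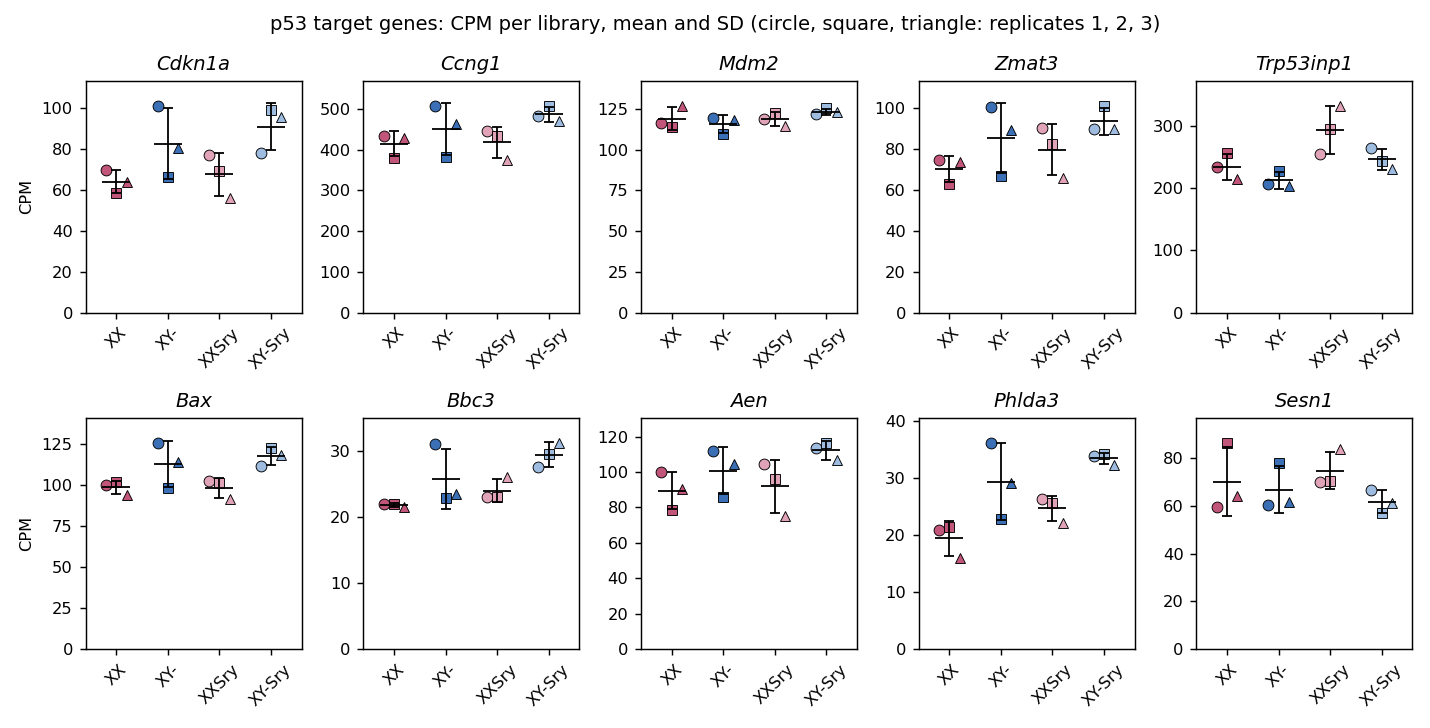
Level of each of the 10 genes in CPM (vertical axis, starting at 0) in every library, by group (horizontal axis); circles, squares and triangles are replicates 1, 2 and 3, and black lines give the mean and SD of 3 libraries. The XY- and XY-Sry means of Cdkn1a, Bax, Bbc3, Ccng1, Phlda3, Zmat3 and Aen lie above the XX and XXSry means, Mdm2 is nearly level, and Trp53inp1 is highest in XXSry.

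The first question was whether XX and XY- cells differed. Negative log2 fold changes were found for 7 of the 10 genes in females, against 49.2% of all tested genes, and for 8 of the 10 in males, against 49.3%. In both gonad types Cdkn1a, Ccng1, Zmat3, Bax, Bbc3, Aen and Phlda3 had lower fitted levels with XX than with XY- chromosomes, as Mdm2 had in males, but edgeR's quasi-likelihood test with Benjamini-Hochberg adjustment over all tested genes called 0 of the 10 in females and 0 of the 10 in males. The share of all tested genes called was 0.103% in females and 0.103% in males. At an unadjusted p under 0.05 there were 4 of the 10 in females, against 6.37% of all tested genes, and 7 of the 10 in males, against 10.4%; DESeq2 called 0 in either. The median log2 fold change of the 10 was -0.18 in females and -0.25 in males, and that of all tested genes was 0.00 in both. In the mean of both gonad types 8 of the 10 were negative, against 48.2% of all tested genes, with a median of -0.23; edgeR called 0 of the 10, against 0.137% of all tested genes, with 8 at an unadjusted p under 0.05, against 14.2%. DESeq2 called 3 in that mean, namely Cdkn1a, Bax and Phlda3, among 84 of all 14585 tested genes, where edgeR called 20. Without XY- replicate 2 edgeR called the same 3, among 91 of 14762 tested genes. That library was singled out as the lowest XY- library for 8 of these same 10 genes. Leaving it out therefore lowers most of their XX minus XY- estimates by construction. In the mean, each of the 3 was called in only 1 of the 12 fits that left out 1 library. Without both libraries that stood apart edgeR called Bax and Phlda3, among 94 of 14699. Most of the 10 genes varied together over these libraries, and the list was chosen with earlier results of these data known. Counts over the 10 are therefore not separate pieces of evidence.

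Cdkn1a encodes p21, an inhibitor of cyclin-dependent kinases that halts the cell cycle. It lies at chr17:29090976-29100727 (mm10). In females it stood at 69.6, 58.4 and 64.0 CPM in XX and at 101, 66.3 and 80.8 CPM in XY-. The groups overlapped, since XY- replicate 2 was below the highest XX library. In males it stood at 77.3, 69.5 and 56.0 CPM in XXSry and at 77.9, 99.2 and 95.8 CPM in XY-Sry, where every XXSry library was below every XY-Sry library, by a narrow margin between the nearest pair. The log2 fold change was -0.37 ± 0.14 (SE) in females and -0.43 ± 0.14 in males (edgeR adjusted p = 0.74 and 0.45). In the mean of both it was -0.40 ± 0.10, or 65.8 against 86.9 CPM (edgeR adjusted p = 0.19). It was called without XY- replicate 2, at -0.47 (edgeR adjusted p = 0.032), and in no other fit that left out 1 library. Without XY- replicate 1 the estimate was -0.31. A gene on the other strand, AC167363.2, shares 7.68% of the exonic bases of Cdkn1a, and since no strand setting is given in the sources used here its reads cannot be told apart.

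Ccng1, which encodes cyclin G1, a partner of a phosphatase that acts on MDM2, lies at chr11:40748552-40755311. It stood at 435, 379 and 430.1 CPM in XX against 507, 382 and 465 in XY-, and at 445, 435 and 374 CPM in XXSry against 482, 508 and 471 in XY-Sry. The female groups overlapped and the male groups did not. Its log2 fold changes were -0.12 ± 0.09 and -0.22 ± 0.09 (edgeR adjusted p = 0.80 and 0.46). Zmat3, an RNA-binding zinc finger protein that regulates splicing and RNA stability, lies at chr3:32334792-32366014. It stood at 74.2, 62.9 and 73.2 CPM in XX against 100.1, 66.4 and 89.2 in XY-, and at 90.3, 82.2 and 65.8 CPM in XXSry against 89.7, 101 and 89.4 in XY-Sry. Both pairs of groups overlapped. The log2 fold changes were -0.28 ± 0.13 and -0.24 ± 0.13 (edgeR adjusted p = 0.74 and 0.54).

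Mdm2 (chr10:117688875-117710758), the inhibitor of p53 that p53 itself induces, was the most even of the genes. Its 12 libraries lay between 109 and 127 CPM, and both pairs of groups overlapped. The log2 fold change of XX against XY- chromosomes was -0.01 ± 0.04 in the mean of both gonad types (edgeR adjusted p = 0.95), with 118.9 CPM against 119.6 CPM. Its estimate changed sign when one of several libraries was left out.

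Among the genes of cell death, Bax encodes a pore-forming protein of the outer mitochondrial membrane and lies at chr7:45461697-45466898. It stood at 100.4, 102 and 94.4 CPM in XX and at 126, 98.5 and 114 CPM in XY-. In males it stood at 103, 101 and 91.7 CPM in XXSry and at 112, 123 and 119 CPM in XY-Sry. The female groups overlapped through XY- replicate 2, and the male groups did not overlap. The log2 fold changes were -0.19 ± 0.08 and -0.26 ± 0.08 (edgeR adjusted p = 0.74 and 0.45), and -0.23 ± 0.06 in the mean (edgeR adjusted p = 0.18). Without XY- replicate 2 the mean was -0.27 and Bax was called (edgeR adjusted p = 0.020). Bax was called in no other fit that left out 1 library, and without XY- replicate 1 the mean was -0.18. Gm45808, on the same strand, shares 12.2% of its exonic bases.

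Bbc3 (chr7:16308393-16318205) encodes PUMA, an activator of BAX-dependent death. It stood at 22.0, 22.0 and 21.5 CPM in XX and at 31.1, 22.9 and 23.5 CPM in XY-. In males it stood at 23.0, 23.0 and 26.0 CPM in XXSry and at 27.6, 29.5 and 31.3 CPM in XY-Sry. Neither pair of groups overlapped, although XY- replicates 2 and 3 were close above the XX libraries. The log2 fold changes were -0.24 ± 0.11 and -0.29 ± 0.11 (edgeR adjusted p = 0.74 and 0.45).

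Aen, a nuclease known for degrading DNA in apoptosis, lies at chr7:78895854-78911209. It stood at 99.8, 78.5 and 90.3 CPM in XX against 112, 85.9 and 104 in XY-, and at 104, 95.9 and 75.2 CPM in XXSry against 113, 117 and 106 in XY-Sry. The female groups overlapped and the male groups did not. The log2 fold changes were -0.17 ± 0.12 and -0.29 ± 0.12 (edgeR adjusted p = 0.78 and 0.46).

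Phlda3, a small pleckstrin-homology protein that inhibits the survival kinase AKT, lies at chr1:135766119-135769136 and had the largest fitted differences of the 10 in both gonad types. It stood at 20.96, 21.4 and 15.9 CPM in XX and at 36.3, 22.8 and 29.1 CPM in XY-. In males it stood at 26.3, 25.6 and 22.1 CPM in XXSry and at 33.9, 34.2 and 32.4 CPM in XY-Sry. Every library with XX chromosomes was below every library with XY- chromosomes of the same gonad type. The log2 fold change was -0.59 ± 0.14 in females, from 19.4 CPM in XX and 29.4 CPM in XY-, and -0.44 ± 0.14 in males (edgeR adjusted p = 0.55 and 0.45). In the mean of both it was -0.51 ± 0.10 (edgeR adjusted p = 0.067), and leaving out 1 library moved it between -0.59 and -0.42. Without XY- replicate 2 it was called in females, at -0.74 ± 0.13 (edgeR adjusted p = 0.033), and in the mean (edgeR adjusted p = 0.0043). No other fit that left out 1 library called it in either.

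Trp53inp1 and Sesn1 had the opposite sign. Trp53inp1, a stress-induced partner of p53 that also acts in autophagy, lies at chr4:11156431-11174379. Its log2 fold changes for XX against XY- were 0.14 ± 0.09 in females and 0.26 ± 0.09 in males (edgeR adjusted p = 0.76 and 0.45), and its libraries are given with the Sry comparison. Sesn1 encodes sestrin 1, an inhibitor of the growth kinase complex mTORC1, and lies at chr10:41809935-41908424. It stood at 59.4, 86.4 and 64.2 CPM in XX against 60.4, 78.0 and 61.6 in XY-, and at 70.1, 70.2 and 83.6 CPM in XXSry against 66.7, 57.1 and 61.0 in XY-Sry. The female groups overlapped, with replicate 2 the highest in both, and every XXSry library was above every XY-Sry library. The log2 fold changes were 0.07 ± 0.13 and 0.28 ± 0.13 (edgeR adjusted p = 0.93 and 0.48).

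Counted over the list, the groups did not overlap for 2 of the 10 genes in females, Bbc3 and Phlda3, both lower in XX, as did 5.07% of all tested genes in that direction. In males 6 of the 10 were lower in XXSry without overlap (Cdkn1a, Bax, Bbc3, Ccng1, Phlda3 and Aen), against 9.88% of all tested genes, and Sesn1 was higher, against 10.3%. The females and males share no library. In neither was any of the 10 called, and the interaction of sex chromosomes and Sry, which asks whether the female and male differences were unequal, called 0 of the 10 by edgeR or DESeq2. The share of all tested genes called for it was 0%, and 0 of the 10 had an unadjusted p under 0.05, against 2.64% of all tested genes.

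**Figure D2:**
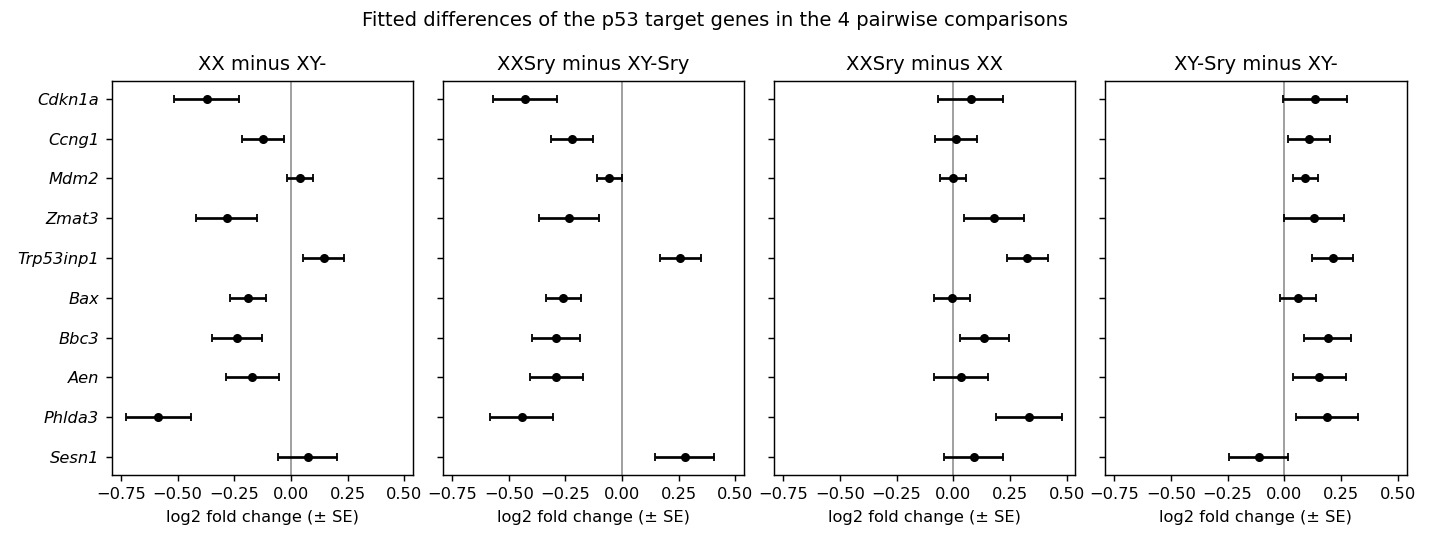
Fitted log2 fold change (horizontal axis) of each of the 10 genes in the 4 pairwise comparisons; points are edgeR estimates and bars 1 SE. In the left 2 panels 7 and 8 of the 10 points lie below 0, with Phlda3 lowest at -0.59 and -0.44, and in the panel of XXSry minus XX Phlda3 and Trp53inp1 are the farthest from 0 at 0.33 each.

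The second question was whether carriers of Sry differed from non-carriers. In the mean of both sex chromosome types 1 of the 10 genes, Trp53inp1, was called, and it was higher in the carriers; 2.13% of all tested genes were called higher and 3.31% lower. DESeq2 also called 1, among 1008 of 14585 tested genes. Trp53inp1 stood at 233, 256 and 214 CPM in XX against 255, 295 and 332 CPM in XXSry. It stood at 206, 227 and 203 CPM in XY- against 264, 243 and 231 CPM in XY-Sry. The 3 XY-Sry libraries were all above the 3 XY- libraries, while the lowest XXSry library was just below the highest XX library. The rise was 0.27 ± 0.06 on the log2 scale, or 20.5%, from a mean of 223 to 269.9 CPM (edgeR adjusted p = 0.025). The call ended without XY- replicate 3, XXSry replicate 2, XY-Sry replicate 1 or XY-Sry replicate 2 (edgeR adjusted p = 0.066, 0.067, 0.079 and 0.058), with log2 fold changes from 0.22 to 0.32 over all 12 fits that left out 1 library. Taken singly, the difference was 0.33 ± 0.09 for XXSry against XX and 0.21 ± 0.09 for XY-Sry against XY- (edgeR adjusted p = 0.12 and 0.34).

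The other 9 genes were not called for Sry. Phlda3 was nearest, at 0.26 ± 0.10 (edgeR adjusted p = 0.15), followed by Bbc3 at 0.16 ± 0.08 and Zmat3 at 0.15 ± 0.09 (edgeR adjusted p = 0.23 and 0.37). Cdkn1a stood at 0.11 ± 0.10 and Aen at 0.09 ± 0.08, and the remaining 4, Ccng1, Mdm2, Bax and Sesn1, lay between -0.01 and 0.06. Without XY- replicate 1 there were 3 calls, Trp53inp1 with Phlda3 at 0.35 and Bbc3 at 0.24 (edgeR adjusted p = 0.033 and 0.032), among 859 of 14830 tested genes called in that fit. That library was the highest XY- library for 8 of the 10 genes, Phlda3 and Bbc3 among them. Leaving it out therefore raises their Sry minus no Sry estimates by construction. Within the single comparisons edgeR called 0 of the 10 for XXSry against XX, against 0.453% of all tested genes, with 2 at an unadjusted p under 0.05, against 14.0% of all tested genes. It called 0 of the 10 for XY-Sry against XY-, against 0.679%, with 1 at an unadjusted p under 0.05, against 12.7%. DESeq2 called Trp53inp1 in the first, among 263 genes, and 0 in the second. The counts over all genes moved with single libraries: the 66 genes called for XXSry against XX became 2 without XXSry replicate 2 and 146 without XX replicate 2, and the 99 for XY-Sry against XY- became 8 without XY-Sry replicate 2 and 182 without XXSry replicate 3. Bbc3 and Phlda3 did not overlap between XXSry and XX, both higher in XXSry, as was the case for 8.08% of all tested genes. Mdm2 and Trp53inp1 did not overlap between XY-Sry and XY-, both higher in XY-Sry, as for 11.1%. These comparisons share the XX and XY- libraries with those of the sex chromosomes.

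Within the XY-, XXSry and XY-Sry groups 1 library was highest for most of the genes, and in XY- and XXSry 1 was lowest for most. XY- replicate 2 was the lowest of its group for 8 of the 10 genes, and the highest for the other two, Trp53inp1 and Sesn1. XXSry replicate 3 was the lowest of its group for 7 and the highest for Bbc3, Trp53inp1 and Sesn1. XY- replicate 1 was the highest of its group for 8, XY-Sry replicate 2 for 7 and XXSry replicate 1 for 6. No XX library was highest or lowest for more than 5 of the 10. How many of all tested genes were highest or lowest in each library was not counted. Relative to its group mean, Ccng1 was on the same side as Cdkn1a in 10 of the 12 libraries, Zmat3 in 10, Bax, Aen and Mdm2 in 9 each, and Bbc3 and Phlda3 in 7 each. Trp53inp1 was on the same side in 2 and Sesn1 in 1.

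As a description over the 12 libraries, the Pearson correlation of a gene's log2 CPM with the mean of the other 9 was 0.92 for Phlda3, 0.88 for Zmat3, 0.88 for Bax, 0.85 for Cdkn1a, 0.84 for Ccng1, 0.80 for Bbc3 and 0.79 for Aen. It was 0.44 for Mdm2, -0.29 for Trp53inp1 and -0.68 for Sesn1. These values share the groups and the scaling of the libraries. Of 14349 other tested genes with a symbol, those most like the mean of the 10 were Nomo1 (Pearson correlation 0.98), Nop16 (0.97), Slc19a2 (0.96), Rpl7l1 (0.96) and Wdr18 (0.96). None of the 5 was called in either mean comparison.

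FoxO transcription factors, which are active in resting T cells and leave the nucleus after antigen receptor stimulation, offer a second set of targets in the same libraries, and Sesn1 and Bbc3 are known targets of both p53 and FoxO. The 7 FoxO targets listed were Klf2, Il7r, S1pr1, Ccng2, Pik3ip1, Cdkn1b and Txnip. In XY- replicate 2 and XXSry replicate 3, where most of the p53 targets were lowest of their group, the FoxO targets were highest for 7 of 7 genes each. In XX replicate 2, where 5 of the 10 p53 targets were lowest and 4 were highest, 6 of 7 FoxO targets were highest. The FoxO targets were lowest for 7 of 7 genes in XY-Sry replicate 2, 7 of 7 in XXSry replicate 1 and 6 of 7 in XY- replicate 1. Without such counts over all tested genes, this order is not shown to be particular to either list. Pecam1 was also highest of its group in XX replicate 2 at 107 CPM, XY- replicate 2 at 102 CPM and XXSry replicate 3 at 124 CPM. Its part in the p53 target levels was not tested.

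**Figure D3:**
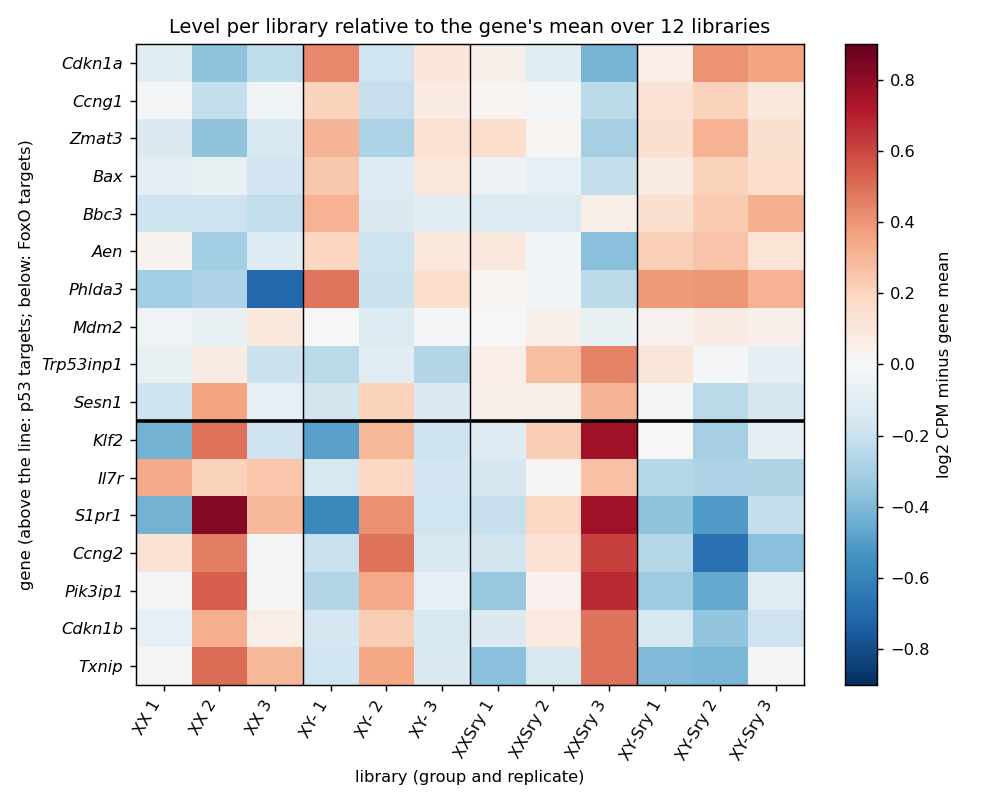
Level of each gene (rows) in each library (columns) as log2 CPM minus the gene's mean over 12 libraries, with the 10 p53 targets above the thick line and 7 FoxO targets below it. XY- replicate 2 and XXSry replicate 3 are low for most p53 targets and high for the FoxO targets, and Trp53inp1 and Sesn1 are high in those columns relative to the other libraries of the group.

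The FoxO targets had the opposite sign to most of the 10 genes in the sex chromosome comparison. All 7 were positive in XX against XY- chromosomes, with a median log2 fold change of 0.31, and edgeR called 0 of the 7, with 4 at an unadjusted p under 0.05. Over all tested genes 48.2% were negative and 14.2% had an unadjusted p under 0.05. Klf2, a factor of T cell quiescence, stood at 0.28 ± 0.17, Txnip, a brake on glucose uptake, at 0.28 ± 0.14, Cdkn1b, the kinase inhibitor p27, at 0.27 ± 0.10 and Ccng2, cyclin G2, at 0.39 ± 0.14 (edgeR adjusted p = 0.46, 0.38, 0.29 and 0.27). For Sry 6 of the 7 were negative, with a median of -0.16, 0 called by edgeR and 1 at an unadjusted p under 0.05, against 50.3% negative and 3062 of 14585 at that p over all tested genes. The counts of negative signs differed between the 2 sex chromosome types, but the interaction did not show the differences to be unequal. For XXSry against XX 4 of the 7 were negative, with a median of -0.007, against 50.5% of all tested genes. For XY-Sry against XY- 7 of the 7 were, with a median of -0.30, against 49.7%. The interaction called 0 of the 7, with 0 at an unadjusted p under 0.05, against 2.64% of all tested genes.

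The amount of Trp53 mRNA, which encodes p53, was even. It was 208 ± 12.9, 211 ± 2.95, 208 ± 6.88 and 214 ± 4.75 CPM (SD, n = 3) in XX, XY-, XXSry and XY-Sry. The log2 fold change was -0.03 ± 0.04 for sex chromosomes and 0.01 ± 0.04 for Sry (edgeR adjusted p = 0.75 and 0.89). An mRNA level does not measure p53 protein, which is regulated mostly by its stability. The 18 listed regulators of p53 had a median log2 fold change of 0.04 for sex chromosomes, with 5 negative, 0 called by edgeR and 5 at an unadjusted p under 0.05, against 48.2% negative and 14.2% at that p over all tested genes. The deubiquitinase Usp7 stood at -0.01 ± 0.04, the acetyltransferase Ep300 at 0.17 ± 0.04 and the DNA damage kinase Atm at 0.08 ± 0.05 (edgeR adjusted p = 0.94, 0.20 and 0.47). Hipk2, a kinase that phosphorylates p53, was at 0.38 ± 0.07 (edgeR adjusted p = 0.067), a gene singled out after its value was seen.

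For Sry 1 of the 18 regulators was called, and it was lower, against 3.31% of all tested genes called lower. Hipk2 was lower in the carriers, at 111, 113 and 144 CPM in XXSry against 136, 138 and 165 CPM in XX. The XY-Sry libraries stood at 97.3, 87.4 and 92.7 CPM against 102, 127 and 113 CPM in XY-. The XY-Sry libraries were all below the XY- libraries, and the XXSry and XX groups overlapped through XXSry replicate 3. The share of all tested genes lower in XY-Sry without overlap is not given here. The log2 fold change was -0.27 ± 0.07 (edgeR adjusted p = 0.044). This call held in 4 of the 12 fits that left out 1 library, with an adjusted p of up to 0.12, and ended without XX replicate 3, XY- replicate 2 or 3, each XY-Sry library or XXSry replicates 1 or 2.

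Of 32 other p53 targets listed, 30 were tested, and Gdf15 and Eda2r were not. For sex chromosomes 19 of the 30 were negative, with a median of -0.03, 0 called by edgeR and 7 at an unadjusted p under 0.05, against 48.2% negative and 14.2% at that p over all tested genes. The 4 most abundant were Tap1, a peptide transporter of antigen presentation, at -0.03 ± 0.04, Pml, which forms nuclear bodies, at -0.02 ± 0.04, Ddit4, an inhibitor of mTORC1, at 0.15 ± 0.10 and Ei24 at -0.16 ± 0.05 (edgeR adjusted p = 0.78, 0.84, 0.49 and 0.25). The lowest was Plk2, a stress-induced kinase, at -0.46 ± 0.12 (edgeR adjusted p = 0.19), chosen after its value was seen.

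For Sry 2 of the 30 other targets were called, both higher in the carriers, against 2.13% of all tested genes called higher. Btg2, an antiproliferative gene, stood at 55.8, 64.5 and 82.4 CPM in XXSry against 45.2, 61.0 and 35.1 CPM in XX, and at 55.0, 52.6 and 63.4 CPM in XY-Sry against 48.6, 45.5 and 40.4 CPM in XY-. Apaf1, the scaffold of the apoptosome, stood at 101, 99.0 and 103 CPM in XXSry against 88.5, 93.7 and 75.4 CPM in XX, and at 103, 101 and 102 CPM in XY-Sry against 96.1, 86.8 and 94.8 CPM in XY-. Every carrier library of Apaf1 was above every other library, while XX and XXSry overlapped for Btg2. The share of all tested genes with such a separation is not given here, so how unusual it is cannot be judged. The log2 fold changes were 0.43 ± 0.12 for Btg2 and 0.19 ± 0.05 for Apaf1 (edgeR adjusted p = 0.044 and 0.040). These calls held in 3 and 5 of the 12 fits that left out 1 library. The Btg2 call ended without any library other than XX replicate 2, XY- replicate 1 or XXSry replicate 1, and that of Apaf1 without XY- replicate 2 or 3, each XY-Sry library or XXSry replicates 1 or 2, with adjusted p of up to 0.11 and 0.10.

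The 12 cyclins, kinases and other partners of p21 had a median log2 fold change of 0.00 for sex chromosomes, with 0 called by edgeR and 1 at an unadjusted p under 0.05, against 14.2% of all tested genes. The most abundant were cyclin D2 (Ccnd2) at -0.02 ± 0.06, cyclin D3 (Ccnd3) at 0.02 ± 0.05, cyclin A2 (Ccna2) at 0.03 ± 0.04 and the kinase Cdk4 at -0.06 ± 0.04 (edgeR adjusted p = 0.91, 0.91, 0.71 and 0.50). For Sry 1 of the 12 was called, and it was higher, against 2.13% of all tested genes called higher. Ccnd2 stood at 1201, 1110.4 and 1020.0 CPM in XXSry against 1002, 855 and 962 CPM in XX, and at 1141, 1186 and 1100.4 CPM in XY-Sry against 1035, 843 and 932 CPM in XY-. All XXSry libraries were above all XX libraries, as for 8.08% of all tested genes. All XY-Sry libraries were above all XY- libraries, as for 11.1%. The rise was 0.26 ± 0.06 (edgeR adjusted p = 0.016), and it was called in 11 of the 12 fits that left out 1 library, not without XY-Sry replicate 2 (edgeR adjusted p = 0.052).

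**Figure D4:**
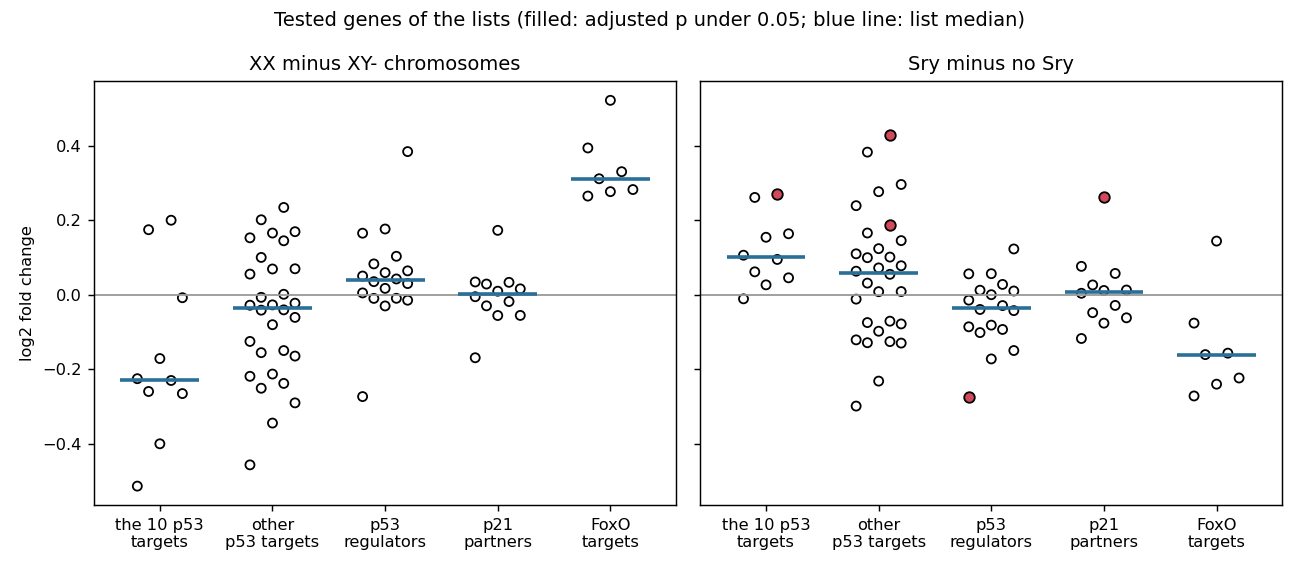
Log2 fold change (vertical axis) of each tested gene of the 5 lists (horizontal axis) in the mean comparisons of sex chromosomes and of Sry; filled points have an edgeR adjusted p under 0.05 and blue lines are list medians. On the left the median of the 10 p53 targets is -0.23 and that of the FoxO targets 0.31, with 0 filled points, and on the right 5 points are filled, among them Trp53inp1 at 0.27.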

How the data were processed

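RNA was measured in 12 libraries of stimulated mouse CD4+ T cells, 3 for each of 4 genotypes. The authors deposited raw read counts per Ensembl gene, with a column for each library, per the file headers, and all values were whole. The submitters' processing notes name bcl2fastq 2.17 and the mm10 build. No aligner, read counter, counting annotation or strand setting is given in the sources used here. Gene symbols, positions and exonic lengths came from GENCODE M21, which matched 37693 of 39017 gene IDs; the other 1324 held 0.597% of all counts. Promoter windows came from RefSeq (GRCm38.p6).

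From the counts, edgeR 4.0.16 in R 4.3.3 with limma 3.58.1 fitted 1 model over all 12 libraries by group, with TMM scaling and filterByExpr (minimum count 10, minimum total 15). The quasi-likelihood F-test gave p-values, adjusted by Benjamini-Hochberg over 14585 genes, with 0.05 as the threshold for a call. CPM used TMM-scaled library sizes, and log2 CPM a prior count of 2. Of the 7 comparisons, 3 were for sex chromosomes (females, males, their mean), 3 for Sry, and 1 was their interaction. The script was tested on simulated data.

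The genes named were all 10, any gene of 4 related lists that was called in a comparison and otherwise the 4 with the highest mean CPM per list, the 5 genes most like the mean of the 10, and Trp53. Outside this rule, Plk2, and Hipk2 for the sex chromosomes, were named after their values were seen. The 10 genes and the lists were chosen with earlier results of these data known, so the lists are no independent evidence. Alternatives were DESeq2 1.42.0 and its size factors, other filters, a replicate block, only the groups compared, and leaving out each library. The FoxO list leaves out 1 gene that is not reported here.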

Additional observations from a re-analysis of the deposited data

How the results depend on the processing

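For the 10 genes, no count of calls differed by more than 1.5 times from the one reported under DESeq2 size factors, the stricter filter of a mean of 50 reads, or a fit of only the groups compared. Without a filter (every gene with at least 1 read) the calls were 3 in females, 7 in males, 8 in the mean of the sex chromosomes, 1 for XXSry against XX, 1 for XY-Sry against XY- and 2 for the mean of Sry. Over all 27235 genes tested there, the calls in the same order were 124, 368, 652, 638, 703 and 1494. In that fit the standard error of Cdkn1a in females was 0.078 against 0.14, and the cause was not tested. DESeq2 called 3 for the sex chromosome mean, among 84 of 14585 tested genes, and 1 for XXSry against XX, among 263. Leaving out 1 library gave 0 to 1 calls in females, 0 to 3 in the sex chromosome mean, 0 to 3 in the Sry mean and 0 in each other comparison. Over all tested genes the calls in the first 3 of these were 14 to 18, 16 to 91 and 358 to 1282. Without XX replicate 3 and XY- replicate 2, an alternative chosen after seeing the data, 2 genes were called in the sex chromosome mean, Bax at -0.25 and Phlda3 at -0.53 (edgeR adjusted p = 0.033 and 0.0047), and Trp53inp1 stayed called for Sry (edgeR adjusted p = 0.043). Of the 4 other called genes, Ccnd2 stayed called there and Apaf1, Btg2 and Hipk2 did not (edgeR adjusted p = 0.080, 0.11 and 0.18); Btg2 also missed the threshold with the stricter filter (edgeR adjusted p = 0.053).

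No called gene changed sign. Some estimates that were not called did when 1 library, or the pair that stood apart, was left out. Not all of them were near 0 with every library kept. Cdkn1a and Zmat3 were then at 0.13 each for XY-Sry against XY-, and Phlda3 at 0.14 for the interaction. The ranges over the fits with libraries left out were as follows. In females they were -0.11 to 0.26 for Sesn1 and -0.042 to 0.069 for Mdm2. In the sex chromosome mean they were -0.050 to 0.0056 for Mdm2. For XXSry against XX they were -0.039 to 0.043 for Bax, -0.018 to 0.28 for Sesn1, -0.048 to 0.087 for Ccng1, -0.065 to 0.16 for Aen, -0.032 to 0.045 for Mdm2 and -0.027 to 0.20 for Cdkn1a. For XY-Sry against XY- they were -0.00067 to 0.30 for Cdkn1a, -0.029 to 0.15 for Bax, -0.18 to 0.020 for Sesn1 and -0.020 to 0.26 for Zmat3. In the Sry mean they were -0.065 to 0.083 for Sesn1 and -0.031 to 0.070 for Bax. For the interaction they were -0.23 to 0.078 for Cdkn1a, -0.081 to 0.22 for Zmat3, -0.034 to 0.29 for Phlda3, -0.15 to 0.022 for Bax, -0.21 to 0.025 for Bbc3, -0.19 to 0.029 for Ccng1, -0.22 to 0.0084 for Aen and -0.0064 to 0.21 for Trp53inp1. Without a filter Mdm2 was at 0.0057 in XXSry against XX, against -0.0023.

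Counts over all tested genes moved too. Without a filter they were 124 in females, 368 in males, 652 and 1494 in the sex chromosome and Sry means and 32 for the interaction, against 15, 15, 20, 793 and 0. DESeq2 called 84 for the sex chromosome mean. With 1 library left out there were 358 to 1282 calls in the Sry mean, 2 to 146 for XXSry against XX and 8 to 182 for XY-Sry against XY-, against 793, 66 and 99. With only the groups compared the last 2 were 4 and 278, without a filter 638 and 703, and by DESeq2 263 and 271; the replicate block gave 103 for XXSry against XX.

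Samples with the same replicate number were not paired by the labels. Of 18 same-numbered pairs of libraries 5 had a correlation of deviations over 0.1, with a range of -0.16 to 0.23. Among replicates 1 it was 0.17 for XX and XY-, 0.18 for XX and XXSry and 0.23 for XY- and XXSry. The others over 0.1 were XX and XY- replicates 2 at 0.12 and XXSry and XY-Sry replicates 3 at 0.13. Differently numbered pairs were not compared, and whether the numbers mark a shared batch was not tested. They were taken as names because the labels give no pairing. With the replicate block 1 of the 10 genes was called in the sex chromosome mean, among 28 of 14585 tested genes. It was Phlda3, at -0.51 ± 0.09 (edgeR adjusted p = 0.039). The counts of calls among the 10 in the other comparisons were the same as reported. There were 3 libraries a group, at a depth of 11664186 counts or more. Over pairs of replicates the chi-square per degree of freedom was 2.47 to 18.0, pooled over genes with at least 20 counts in the pair. Over those genes together, libraries thus varied more than counting error alone would give. This pooled value does not measure single genes. Phlda3 had as few as 179 counts in a library, and Bbc3 as few as 242.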
